A study of Mus musculus with 6 samples.

Results

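The genes described here are the enzymes, transporters and regulatory proteins of glycolysis, gluconeogenesis, glycogen, fructose and pentose phosphate metabolism in the liver. They were taken from a list of 40 symbols, of which 34 had a probe set named for them alone among the 22180 genes measured. Aldoa and Tkt occurred only on probe sets shared with another gene and were given no value, and Pfkfb1, Eno1, Gpi1 and G6pdx were not analysed here. Where a gene had several probe sets, the one with the highest mean over the 6 arrays was read.

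Liver RNA was hybridised to Affymetrix whole-transcript arrays, 1 array per mouse, from 3 HKO and 3 Con male C57BL/6J mice. HKO mice carried floxed alleles of Slug (symbol Snai2), a Snail family repressor of transcription, and albumin-CreERT2, a tamoxifen-inducible recombinase that the albumin promoter confines to hepatocytes. Con mice were littermates with the genotype Slug f/f, and the labels do not say whether they carried the Cre transgene or how recombination was induced. Both groups ate a high fat diet (60% of calories as fat) for 11 weeks, starting at 8 weeks old. The comparison asks how liver transcripts differ when hepatocytes lack Slug during high fat feeding. Whole liver pieces hold other cells as well, and in such samples fewer cells of a type and less RNA per cell cannot be told apart.

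All values are log2 array values made with RMA, so a difference of 1 is a doubling, and changes of dim genes are compressed. Snai2 stood at 4.62, 5.23 and 5.69 in the HKO arrays, against 7.74, 7.69 and 7.39 in the Con arrays, a log2 change of -2.43 ± 0.25 (SE, limma adjusted p = 0.0145). The 9 hepatocyte markers measured, albumin among them, had mean levels between 9.69 and 12.44, all above the median over genes of 3.95. Arrays of one group correlated at 0.989 to 0.992 across genes, and arrays of different groups at 0.986 to 0.988. For 8 of the 34 genes (23.5%, against 6.78% of all genes), HKO replicates 2 and 3 were below every Con array and HKO replicate 1 was not. G6pc and Ppp1r3c were among these 8. The same split upward held for 1 gene (2.94%, against 5.17% of all genes). Both counts were made after the values were seen.

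The liver takes up glucose, stores it as glycogen, burns it through glycolysis and turns its carbon into fat, and in fasting it releases glucose made from glycogen or from lactate and amino acids. Several steps are one-way and have a separate enzyme for each direction, such as phosphofructokinase for glycolysis and fructose bisphosphatase for gluconeogenesis. The pentose phosphate pathway branches off at glucose 6-phosphate and supplies NADPH for lipid synthesis and ribose for nucleotides.

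Most of these genes had slightly lower transcript levels in HKO livers, and the differences were small. The mean was lower in HKO for 29 of the 34 genes and higher for 5, with a median log2 change of -0.20, against -0.01 over all genes. The lowest change was -0.79 (Ppp1r3c) and the highest 0.48 (Pdk2). None of the 34 passed an adjusted p of 0.05 in limma over all genes, where 45 of 22180 genes (0.203%) did, 0.0902% higher and 0.113% lower in HKO. At an unadjusted p under 0.05, 15 genes were lower and 1 was higher in HKO, together 47.1% of the 34, against 11.9% of all genes (6.56% lower, 5.31% higher). HKO and Con arrays did not overlap for 16 genes, 15 lower and 1 higher, against 18.2% of all genes (10.1% lower, 8.05% higher).

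The 34 genes were mostly well expressed, and such genes differed more often. Among the 11224 genes above the median over genes on at least 3 arrays, 18.1% had an unadjusted p under 0.05 and 24.5% did not overlap, against 16 and 15 of the 33 glucose genes kept by that filter. The count at an unadjusted p under 0.05 was 9 of 34 (26.5%) without HKO replicate 2, where 10.5% of all genes had one, and 9 of 34 without Con replicate 1, where 9.20% did. It was 14 of 34 (41.2%) without HKO replicate 1, where 11.6% of all genes had one. Without that array 25 of the 34 genes did not overlap, against 30.1% of all genes.

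**Figure D1:**
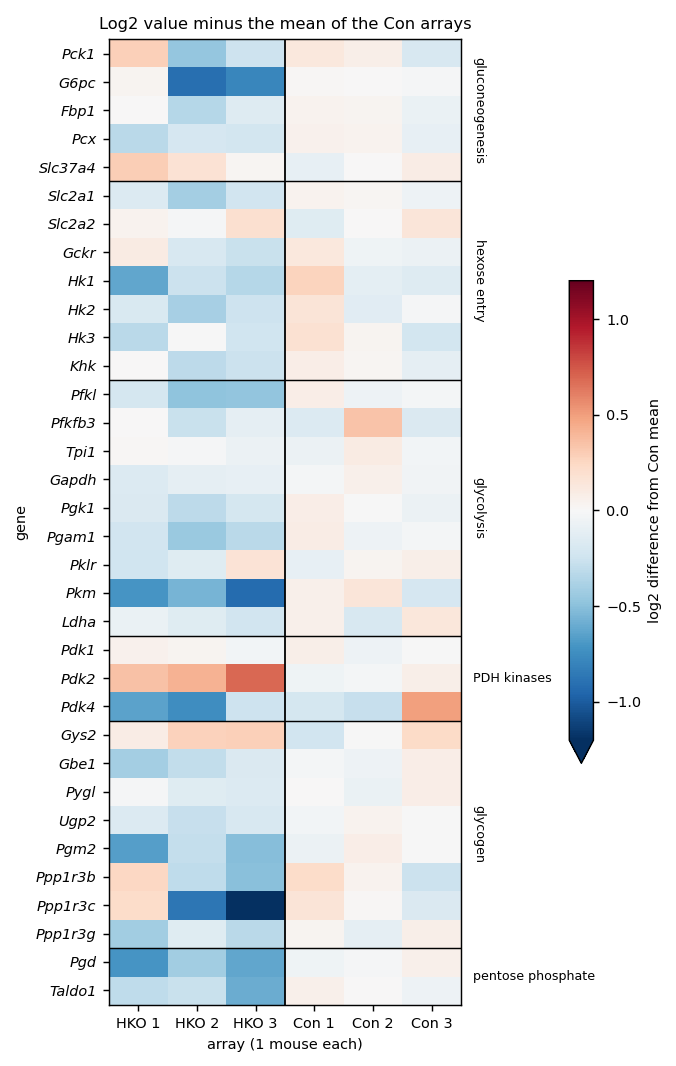
Heat map of the 34 genes (rows, grouped by branch) on the 6 arrays (columns), coloured by the log2 value minus the mean of the 3 Con arrays, with blue lower and red higher. Pgd, Pkm and Pgm2 were lower on all 3 HKO arrays, Pdk2 was higher on all 3, and G6pc and Ppp1r3c were lower on HKO replicates 2 and 3 but not on HKO replicate 1.

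**Figure D2:**
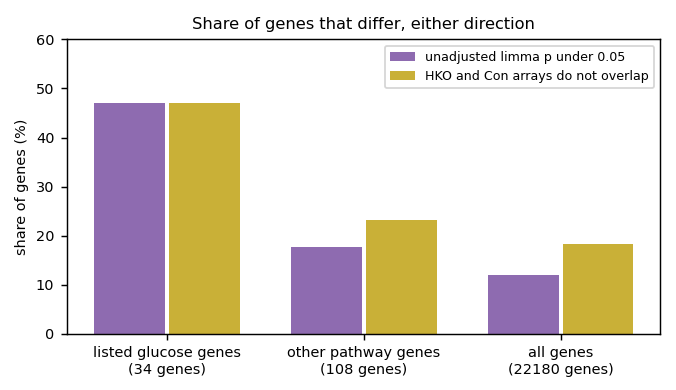
Bars give the share of genes in percent with an unadjusted limma p under 0.05 and the share whose HKO and Con arrays do not overlap, either direction, for the 34 glucose genes, 108 other genes of the same pathways and all 22180 genes. Both shares were 47.1% for the 34 genes, 17.6% and 23.1% for the other pathway genes, and 11.9% and 18.2% for all genes.

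Both measured genes of the list's pentose phosphate branch were lower in every HKO array than in any Con array. Pgd, 6-phosphogluconate dehydrogenase, makes NADPH in the oxidative part of the pathway. Its values were 7.18, 7.48 and 7.27 in HKO livers, against 7.84, 7.88 and 7.95 in Con livers. The Con arrays lay close together and the HKO arrays spread more, without reaching them. The log2 change was -0.58 ± 0.11 (SE), or 1.5-fold lower (limma adjusted p = 0.113). Taldo1, transaldolase, which links the pathway back to glycolysis, had 6.91, 6.94 and 6.61 in HKO livers and 7.27, 7.21 and 7.14 in Con livers. Its log2 change was -0.39 ± 0.12 (adjusted p = 0.278), and HKO replicate 3 was the lowest array.

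The promoter window of Pgd is shown with those of 3 other genes because Snail family factors bind the E-box CAGGTG, and because CACGTG is the E-box form bound by basic helix-loop-helix factors such as USF and part of the carbohydrate response element. The windows are RefSeq's, build GRCm38.p6, from 250 bases before to 50 bases after an annotated start, written 5′ to 3′ on the gene's strand with the E-boxes in capitals. That of Pgd (chr4:149166656-149166955, minus strand) holds CAGGTG 74 bases before the start, and a second annotated start of Pgd has none in its window. Gbe1 (chr16:70313699-70313998, plus strand) holds CAGGTG at 154 and 91 bases. Pdk2 (chr11:95041322-95041621, minus strand) holds CACGTG at 126 bases in one of its 2 windows, and Ppp1r3c (chr19:36736555-36736854, minus strand) holds it at 104 bases.
Pgd: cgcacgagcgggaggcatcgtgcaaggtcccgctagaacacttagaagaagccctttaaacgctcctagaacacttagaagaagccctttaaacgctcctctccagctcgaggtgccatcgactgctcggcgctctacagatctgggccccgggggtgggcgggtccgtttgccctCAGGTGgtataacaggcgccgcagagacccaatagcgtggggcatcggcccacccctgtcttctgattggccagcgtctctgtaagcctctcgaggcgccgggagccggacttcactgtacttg
Gbe1: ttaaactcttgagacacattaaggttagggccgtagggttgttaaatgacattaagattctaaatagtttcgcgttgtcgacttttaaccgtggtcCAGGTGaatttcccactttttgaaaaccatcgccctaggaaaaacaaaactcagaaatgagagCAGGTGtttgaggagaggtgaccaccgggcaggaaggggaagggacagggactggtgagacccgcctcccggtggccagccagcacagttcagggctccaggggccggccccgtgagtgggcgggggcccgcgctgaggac
Pdk2: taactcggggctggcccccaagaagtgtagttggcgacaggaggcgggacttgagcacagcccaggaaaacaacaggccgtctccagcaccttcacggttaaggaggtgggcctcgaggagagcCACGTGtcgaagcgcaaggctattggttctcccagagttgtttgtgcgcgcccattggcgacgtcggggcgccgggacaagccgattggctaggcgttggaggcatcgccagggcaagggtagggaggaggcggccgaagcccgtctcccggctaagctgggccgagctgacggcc
Ppp1r3c: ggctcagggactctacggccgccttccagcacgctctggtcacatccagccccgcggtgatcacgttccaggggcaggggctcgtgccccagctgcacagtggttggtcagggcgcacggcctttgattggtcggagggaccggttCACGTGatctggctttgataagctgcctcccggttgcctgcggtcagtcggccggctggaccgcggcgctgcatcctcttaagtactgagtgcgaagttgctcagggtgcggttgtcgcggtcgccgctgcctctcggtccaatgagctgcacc

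Windows were found for 32 of the 34 genes, and both motifs were searched on both strands, with no overlap between a CAGGTG and a CACGTG in any of them. CAGGTG or its reverse CACCTG occurred in at least 1 window of 7 of the 32 genes (21.9%), against 22.6% of 27025 genes. Besides Pgd and Gbe1 these were Pgm2, Hk1, Khk, Fbp1 and Ldha. CACGTG occurred for 6 of 32 (18.8%), against 8.1% of all genes, and besides Pdk2 and Ppp1r3c these were Khk, Ldha, Pcx and Pfkfb3. Pkm, which had the lowest adjusted p among the 34 genes, has neither motif in its windows.

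All 9 measured glycolysis genes of the list had lower means in HKO, 4 of them at an unadjusted p under 0.05, and the branch median was -0.15. Of 12 other glycolysis genes, 8 had lower and 4 higher means, with a median of -0.04. Pkm, the pyruvate kinase form of most tissues other than hepatocytes, differed most. It stood at 6.23, 6.38 and 6.01 in HKO livers, against 6.99, 7.08 and 6.73 in Con livers. The highest HKO array was below the lowest Con array. The log2 change was -0.73 ± 0.14 (SE), or 1.65-fold lower (limma adjusted p = 0.113). Pklr, the pyruvate kinase of hepatocytes and red cells, had 9.91, 10.00 and 10.31 in HKO and 10.05, 10.18 and 10.22 in Con. Its groups overlapped, and the change of -0.07 had a 95% confidence interval from -0.37 to 0.22.

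Pfkl, the liver subunit of phosphofructokinase, which commits sugar to glycolysis, had 6.00, 5.73 and 5.74 in HKO livers and 6.29, 6.15 and 6.19 in Con livers. The change was -0.39 ± 0.11 (SE, adjusted p = 0.267), with no overlap. Pgam1, phosphoglycerate mutase, had 7.34, 7.13 and 7.24 in HKO and 7.66, 7.51 and 7.54 in Con, a change of -0.33 ± 0.11 (adjusted p = 0.290). All 3 HKO arrays of Pgam1 lay below the Con arrays, while its second probe set stood at -0.05. Pgk1, phosphoglycerate kinase, which makes ATP in the pathway, had 8.68, 8.54 and 8.65 in HKO and 8.94, 8.85 and 8.79 in Con (log2 change -0.23, adjusted p = 0.415), again with no overlap.

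Gapdh, the dehydrogenase often used as a loading control, also did not overlap, at 11.39, 11.45 and 11.46 in HKO livers and 11.53, 11.62 and 11.51 in Con livers. The log2 change was only -0.12 ± 0.09 (SE, adjusted p = 0.673), and its other probe sets stood at -0.13 and -0.10. Ldha, which turns pyruvate into lactate, was at -0.15, and Pfkfb3, which makes an activator of phosphofructokinase, at -0.13. Tpi1, triose phosphate isomerase, was at -0.03 with a 95% interval from -0.25 to 0.20. The arrays of these 3 genes overlapped.

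**Figure D3:**
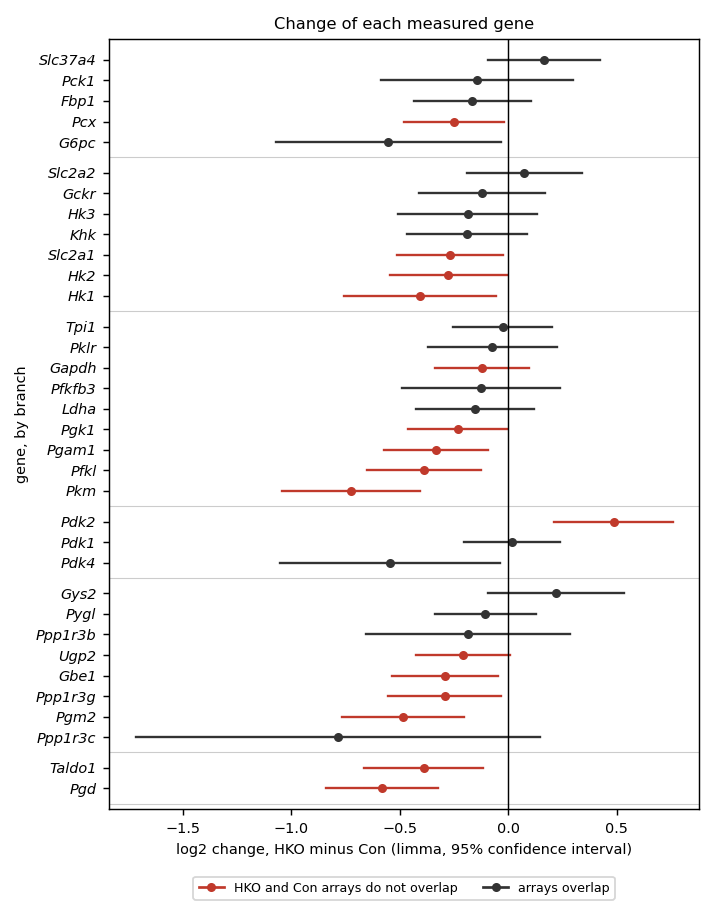
Points give the log2 change, HKO minus Con, of each of the 34 genes by branch, with limma's 95% confidence interval as a line and red for genes whose HKO and Con arrays do not overlap. Pdk2 (0.48) is the single red point right of 0, and Pkm (-0.73) and Pgd (-0.58) are the red points farthest left.

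The 3 kinases of the list switch off pyruvate dehydrogenase, and with it the entry of glucose carbon into the citric acid cycle. None of them passed over all genes, 1 was higher and 1 lower at an unadjusted p under 0.05, and the branch median was 0.02. Pdk2 was the single gene of the 34 with higher values in every HKO array. It had 9.25, 9.32 and 9.59 in HKO livers, against 8.85, 8.88 and 8.97 in Con livers. The log2 change was 0.48 ± 0.12 (SE), or 1.40-fold higher (limma adjusted p = 0.192). Pdk4, the form induced by fasting and fatty acids in many tissues, had 5.26, 5.15 and 5.65 in HKO and 5.68, 5.62 and 6.39 in Con. Its change was -0.55 ± 0.22 (adjusted p = 0.395), and HKO replicate 3 lay between the Con arrays. Without Con replicate 3, the highest array, it was -0.30. Pdk1 had a change of 0.02, with a 95% interval from -0.20 to 0.24. Pdk3, a kinase outside the list, stood at 0.06 with overlapping arrays.

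**Figure D4:**
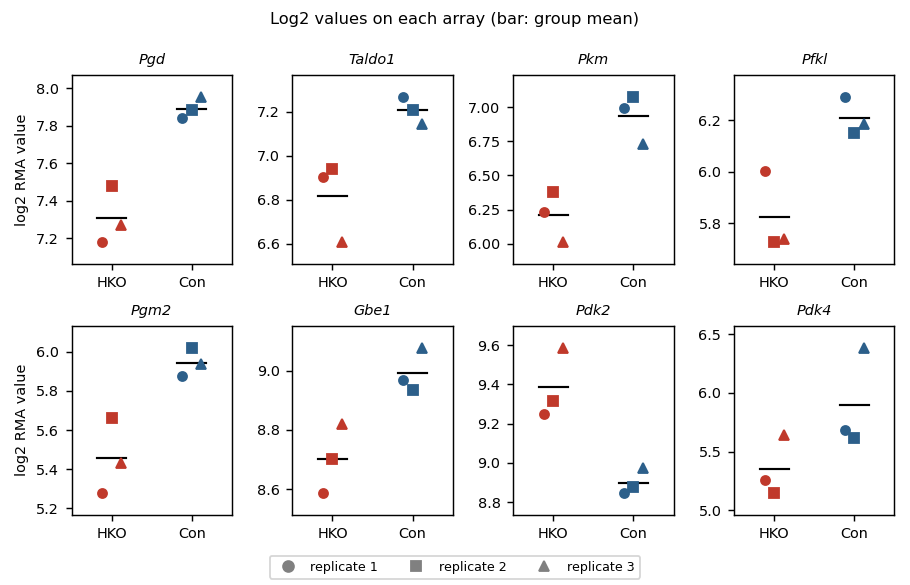
Log2 RMA values of 8 genes on each array, HKO left and Con right, with a symbol for each replicate number and a bar for the group mean (n = 3 each); the vertical axes do not start at 0 and differ between genes. HKO and Con points do not overlap for any of them except Pdk4, and Pdk2 is the only one with HKO above Con.

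Among the 8 glycogen genes 7 had lower and 1 had higher means in HKO, 3 were lower at an unadjusted p under 0.05, and the branch median was -0.25. Gbe1, the branching enzyme of glycogen synthesis had 8.59, 8.70 and 8.82 in HKO livers and 8.97, 8.93 and 9.08 in Con livers. The groups did not overlap, with a log2 change of -0.29 ± 0.11 (SE, adjusted p = 0.353). Ugp2, which makes UDP-glucose, the sugar donor, had 9.71, 9.60 and 9.68 in HKO and 9.84, 9.91 and 9.86 in Con. The change of -0.21 was small beside a tight spread, with SDs of 0.06 in HKO and 0.04 in Con (n = 3 each, adjusted p = 0.436).

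Pgm2, a phosphoglucomutase family member whose human counterpart acts mainly on ribose phosphates, had the lowest adjusted p of the glycogen genes. Its values were 5.28, 5.66 and 5.43 in HKO livers, against 5.88, 6.02 and 5.94 in Con livers, a log2 change of -0.49 ± 0.12 (SE, adjusted p = 0.203). All HKO arrays were below all Con arrays. Gys2, liver glycogen synthase, went the other way, with 9.73, 9.91 and 9.93 in HKO and 9.41, 9.63 and 9.87 in Con. The groups overlapped, and its change of 0.22 had a 95% interval from -0.10 to 0.53. Pygl, liver glycogen phosphorylase, which releases glucose units, had 8.77, 8.63 and 8.62 in HKO and 8.78, 8.70 and 8.86 in Con, a change of -0.11 (adjusted p = 0.739).

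The targeting subunits bring protein phosphatase 1 to glycogen, where it activates glycogen synthase. Ppp1r3c had the largest change of the 34 genes and the largest spread. It stood at 7.30, 6.21 and 5.37 in HKO livers, against 7.24, 7.09 and 6.90 in Con livers. HKO replicate 1 was above all Con arrays and the other HKO arrays were below them. The log2 change was -0.79 ± 0.41 (SE, adjusted p = 0.502), -1.29 without HKO replicate 1 and -0.32 without HKO replicate 3. Ppp1r3b, the main liver form, had 8.38, 7.83 and 7.63 in HKO and 8.36, 8.18 and 7.88 in Con, a change of -0.19 ± 0.21. HKO replicates 2 and 3 were below all Con arrays, and HKO replicate 1 was above them. The change was -0.40 without HKO replicate 1 and -0.03 without HKO replicate 3. Ppp1r3g had 2.94, 3.22 and 3.04 in HKO and 3.40, 3.26 and 3.43 in Con. Its groups did not overlap, but it lay below the median over genes and is not shown to be above background.

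Of the 5 gluconeogenesis genes, 4 had lower means in HKO and 1 had a higher one, 2 were lower at an unadjusted p under 0.05, and the branch median was -0.17. Pcx, pyruvate carboxylase, the first step from pyruvate, had 9.12, 9.25 and 9.23 in HKO livers and 9.50, 9.49 and 9.35 in Con livers. It was the single gene of the branch without overlap, with a log2 change of -0.25 ± 0.10 (SE, adjusted p = 0.394). G6pc, the catalytic subunit of glucose 6-phosphatase, which frees glucose for release, had 9.70, 8.76 and 8.88 in HKO and 9.67, 9.67 and 9.65 in Con. The Con arrays were nearly equal, HKO replicate 1 lay just above them, and the other HKO arrays were clearly lower. The change was -0.55 ± 0.23 (adjusted p = 0.395), and -0.85 without HKO replicate 1.

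Pck1, phosphoenolpyruvate carboxykinase, had 11.08, 10.34 and 10.55 in HKO livers and 10.92, 10.87 and 10.61 in Con livers. HKO replicate 1 was the highest of the 6 arrays and HKO replicate 2 the lowest. The log2 change was -0.14 ± 0.19 (SE, adjusted p = 0.820), -0.36 without HKO replicate 1 and 0.02 without HKO replicate 2. Fbp1, fructose bisphosphatase, had 10.66, 10.32 and 10.50 in HKO and 10.70, 10.69 and 10.58 in Con, a change of -0.17 with an interval from -0.44 to 0.10. Slc37a4, which carries glucose 6-phosphate into the endoplasmic reticulum for G6pc, was higher in mean by 0.16, with an interval from -0.09 to 0.42 and overlapping arrays.

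**Figure D5:**
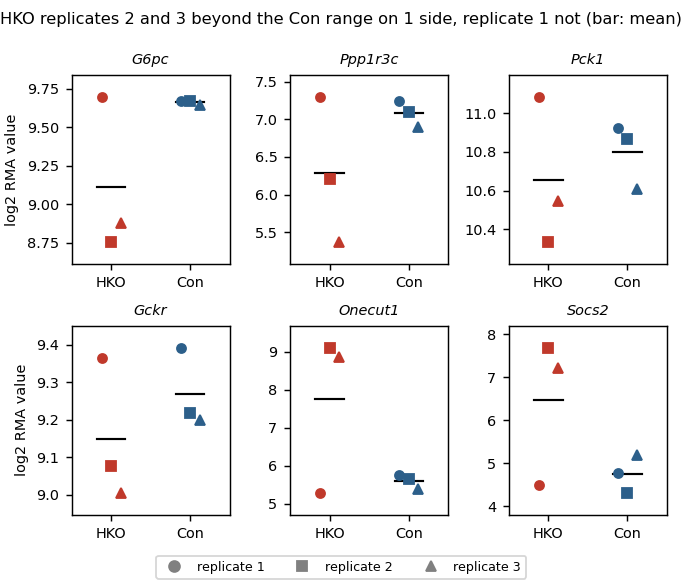
Log2 RMA values on each array of 4 glucose genes (G6pc, Ppp1r3c, Pck1, Gckr) and of Onecut1 and Socs2, HKO left and Con right, with a symbol for each replicate number and a bar for the group mean (n = 3 each); the vertical axes do not start at 0 and differ between genes. HKO replicates 2 and 3 lie below all Con points for the 4 glucose genes and above them for Onecut1 and Socs2, while HKO replicate 1 (circle) does not follow them.

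The array pattern of G6pc recurred in several genes. HKO replicates 2 and 3 were below all Con arrays, and HKO replicate 1 was not, for 8 of the 34 genes (23.5%), against 6.78% of all genes. These were G6pc, Pck1, Fbp1, Gckr, Khk, Pygl, Ppp1r3b and Ppp1r3c. The same pattern in the upward direction held for Gys2 alone, 2.94% of the 34 genes against 5.17% of all genes. With HKO replicate 2 as the array not below the Con range, 1 of the 34 genes was lower (2.94%, against 4.84% of all genes), and with HKO replicate 3, 2 were (5.88%, against 4.89%). These counts were made after the values had been seen.

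Of the 7 genes of hexose entry, 6 had lower means in HKO, 3 of them at an unadjusted p under 0.05, and the branch median was -0.19. Slc2a1, the glucose transporter of most cell types, had 6.58, 6.34 and 6.51 in HKO livers and 6.78, 6.77 and 6.69 in Con livers. The groups did not overlap (log2 change -0.27 ± 0.11, SE, adjusted p = 0.380), and a dim second probe set stood at -0.07. Slc2a2, the main glucose transporter of hepatocytes, had 10.51, 10.46 and 10.66 in HKO and 10.33, 10.47 and 10.62 in Con. Its arrays overlapped, with a change of 0.07 and an interval from -0.19 to 0.34.

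The low Km hexokinases, which hepatocytes hold little of, were lower in mean. Hk1 had 4.70, 5.07 and 4.98 in HKO livers, against 5.60, 5.21 and 5.17 in Con livers, a log2 change of -0.41 ± 0.15 (SE, adjusted p = 0.360). Hk2 had 4.25, 4.03 and 4.18 in HKO and 4.59, 4.30 and 4.42 in Con, a change of -0.28 ± 0.12 (adjusted p = 0.412). Both were without overlap, though Hk1 rested partly on Con replicate 1, without which its change was -0.27. Hk3, a form of blood cells, was at -0.19 with overlapping arrays. Hk2 and Hk3 lay near the median over genes, where changes are compressed. Gckr, the regulatory protein that holds glucokinase inactive in the nucleus, had 9.37, 9.08 and 9.01 in HKO and 9.39, 9.22 and 9.20 in Con, and Khk, which phosphorylates fructose, had a change of -0.19. Neither passed (adjusted p = 0.767 for Gckr and 0.597 for Khk).

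Pkm, Hk1, Hk2, Hk3 and Slc2a1 are also expressed by liver cells other than hepatocytes, so markers of those cells are set beside them. Over all genes, 11.9% had an unadjusted p under 0.05 (6.56% lower, 5.31% higher), and 18.2% did not overlap. Of 14 macrophage and monocyte markers, 12 had lower and 2 higher means in HKO, and 5 were lower at an unadjusted p under 0.05, of which Itgax passed over all genes. The higher ones were Clec4f (0.20, with no overlap) and Timd4 (0.12), markers of resident Kupffer cells. Their mean log2 level lay between 5.33 and 5.62 on the HKO arrays and between 5.74 and 5.87 on the Con arrays, with 2 of the 14 below the median over genes. Of 9 stellate cell and fibroblast markers, 7 had lower means and 6 were lower at an unadjusted p under 0.05, of which Col1a2 passed over all genes. Lrat (0.03), Des (0.05) and Reln (-0.005, counted among the 7) stood near 0. The mean level of the 9 markers lay between 6.01 and 6.24 in HKO and between 6.53 and 6.80 in Con. The 6 endothelial markers lay between 7.51 and 7.56 in HKO and between 7.66 and 7.74 in Con. Lower means were found for 4 of them, and 3 were lower at an unadjusted p under 0.05. These 3 were Lyve1 (-0.57), Cdh5 (-0.30) and Pecam1 (-0.29), while Clec4g (0.14), Kdr (0.07) and Stab2 (-0.05) did not share the difference. Neutrophil markers were lower for 2 of 6 at an unadjusted p under 0.05, 5 of the 6 being below the median over genes. Such a p was found for 0 of 8 lymphocyte markers (4 with higher and 4 with lower means) and 0 of 5 cholangiocyte markers. Lists this short can hold 0 at the share over all genes. The mean level of the 9 hepatocyte markers overlapped, at 11.19 to 11.35 in HKO and 11.17 to 11.24 in Con. Of these markers 6 had higher and 3 lower means. Cps1 (0.27, at an unadjusted p under 0.05) and Ahsg (0.12) were higher without overlap. The part of these cells in the results for the 5 genes was not tested.

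Beyond the listed members, 108 other measured genes of the same pathways held 0 that passed adjusted p 0.05 in limma. At an unadjusted p under 0.05, 8 were higher and 11 lower, 17.6% of the 108, against 11.9% of all genes. The median log2 change of the 108 was -0.03. Slc16a1, a transporter of lactate and pyruvate, differed most of the pyruvate and lactate genes, with 7.11, 7.13 and 6.90 in HKO livers and 7.68, 7.66 and 7.59 in Con livers. No array overlapped, and the change was -0.60 ± 0.11 (SE, adjusted p = 0.0935). Dlat, a subunit of pyruvate dehydrogenase, was at -0.31, and 11 of the 14 genes in that list had lower means.

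Among the other pentose phosphate and NADPH genes, Me1, malic enzyme, had 9.54, 9.91 and 9.92 in HKO livers and 10.33, 10.27 and 10.27 in Con livers, a log2 change of -0.50 ± 0.13 (SE, adjusted p = 0.205). Rpia, ribose 5-phosphate isomerase, was at -0.36. Both genes were without overlap. In that list 3 of the 12 genes were (25%, against 18.2% of all genes), 2 of them lower and 1 higher. The higher one was Pgls, of the pentose phosphate pathway, at 0.19. Of 20 other glycogen genes, 3 were lower and 0 higher at an unadjusted p under 0.05 (15%, against 11.9% of all genes). Among the 3 were Pgm3, which acts on N-acetylglucosamine phosphate, at -0.46 and Pygm, the muscle phosphorylase, at -0.47. Pck2, the mitochondrial counterpart of Pck1, was at -0.42. It was the single one of 11 other gluconeogenesis genes with an unadjusted p under 0.05 (9.09%, against 11.9% of all genes).

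Higher values were found for the fructose transporter Slc2a5, with 5.93, 5.84 and 6.34 in HKO livers, against 5.07, 5.35 and 5.78 in Con livers. Its log2 change was 0.64 ± 0.20 (SE, adjusted p = 0.290), and the groups did not overlap. Aldoc, an aldolase, was at 0.41 with overlapping arrays. Of 25 regulators, 18 had higher means, with 6 higher and 2 lower at an unadjusted p under 0.05 (32%, against 11.9% of all genes). Crtc2, a coactivator of CREB that promotes gluconeogenic transcription under glucagon, had 7.18, 7.35 and 7.46 in HKO and 6.75, 6.96 and 6.87 in Con, a change of 0.47 ± 0.12 (adjusted p = 0.193). Irs2, an adaptor of the insulin receptor, had 6.21, 6.60 and 6.84 in HKO and 5.40, 5.49 and 6.13 in Con. For both genes the lowest HKO array was above the highest Con array. The 3 measured genes of fructose, polyol and galactose metabolism held 0 at an unadjusted p under 0.05.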

How the data were processed

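Liver RNA (400 ng labelled) of 3 HKO and 3 Con mice was hybridised, 1 array per mouse. The deposited values are log2 summaries of each probe set, produced by RMA (the submitters' processing notes name R 3.3.0). RMA sets the arrays' distributions equal, so differences are relative. Arrays have no read depth, and their number limits the precision. Of 41345 probe sets, 23521 had 1 gene in the platform annotation, 1814 several and 16010 none, and 23328 of those with 1 gene matched RefSeq (GRCm38.p6) by Entrez identifier, with 0 symbols changed. The brightest probe set stood for each of 22180 genes, with no filter on low values. HKO was compared with Con in limma 3.58.1 (R 4.3.3, lmFit and eBayes, group as the only term, two-sided, Benjamini-Hochberg over all genes), with 95% intervals from the same fit. The steps were tested on simulated data. Figures used matplotlib 3.10.9 in Python 3.11.15.

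The members and lists were chosen with earlier results of these data known. Array values are given for members that had an unadjusted p under 0.05 or did not overlap and for Pck1, G6pc, Gckr, Pklr and Pygl; those of Ppp1r3b, Ppp1r3c, Fbp1, Slc2a2 and Gys2 were added after they were seen. From the other pathway lists, up to 2 genes with the lowest unadjusted p under 0.05 were named. Exact permutation of 3 against 3 arrays cannot go below p = 0.1 and was not used. The alternatives were other normalizations, a filter, other probe set rules, 2 variance models, weighting of arrays, a block for the replicate number, and leaving out each array.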

Additional observations from a re-analysis of the deposited data

How the results depend on the processing

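No member passed adjusted p 0.05 in the main comparison, with a second quantile normalization, arrays centred on their medians, probe sets averaged or tested singly, a robust fit, array weights, or without any 1 array. The 16 members at an unadjusted p under 0.05 became 13 with the second quantile normalization (11.7% of all genes). With probe sets averaged they became 14 (11.8% of all genes). In both settings 14 members were without overlap (17.8% and 18% of all genes), against 16. Pgd passed (0.0470, 1 member; 132 genes in all) among the genes above the median on at least 3 arrays, a test over fewer genes. With a variance trend 3 members passed, Pgd (0.0180), Pkm (0.0256) and Pdk2 (0.0396), and 215 genes in all; the cause was not tested. Leaving out 1 array, the genes passing numbered 4 to 32 (45 with all arrays), and 9 to 14 members had an unadjusted p under 0.05 (9.01% to 11.6% of all genes), while 16 to 25 members were without overlap. With fewer arrays groups overlap less often in general, 27.2% to 30.1% of all genes then being without overlap, against 18.2%. With the replicate number as a block, 3 genes and 0 members passed, and 12 members had an unadjusted p under 0.05, against 11.5% of all genes. Same-numbered arrays did not deviate together over all genes (correlations 0.03, 0.02 and 0.02). That cannot exclude a pairing of the mice that affects few genes. Branch medians without 1 array ran from -0.24 to -0.16 for glycolysis, -0.29 to -0.15 for hexose entry, -0.25 to -0.08 for gluconeogenesis, -0.26 to -0.23 for glycogen, -0.56 to -0.42 for pentose phosphate and -0.01 to 0.05 for the pyruvate dehydrogenase kinases, whose median was -0.043 with probe sets averaged. The sign of the change held under all alternatives for 29 members and turned in at least 1 for Pck1, Pfkfb3, Tpi1, Pklr and Pdk1.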

Other observations

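The split of the HKO arrays seen in G6pc was also seen, in the other direction, in 3 genes that are not glucose enzymes. Onecut1, a liver transcription factor counted among the regulators, had 5.29, 9.10 and 8.87 in HKO livers, against 5.76, 5.66 and 5.39 in Con livers. Socs2, a feedback inhibitor of growth hormone signalling, had 4.51, 7.69 and 7.22 in HKO and 4.77, 4.32 and 5.18 in Con. Cish, an inhibitor of the same family, had 3.88, 5.44 and 6.00 in HKO and 3.64, 3.79 and 3.38 in Con. In these 3 genes HKO replicates 2 and 3 were above all other arrays, and HKO replicate 1 lay near the Con arrays. Srebf1, which drives lipogenic genes, had 8.13, 7.40 and 7.54 in HKO and 8.34, 8.35 and 8.29 in Con, with all HKO arrays below all Con arrays and HKO replicate 1 nearest to them. Socs2 and Cish belong to no list of the comparison, and all these genes were picked after their values were seen.

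Genes that mark the 2 ends of the liver lobule were read by list. Of 6 periportal genes, 2 had higher and 4 lower means in HKO (median log2 change -0.06), and of 8 pericentral genes, 6 had higher and 2 lower means (median 0.13). The mean level of the periportal genes was 9.11, 8.72 and 8.43 in HKO and 8.56, 8.83 and 8.76 in Con, so the HKO arrays lay on both sides of the Con arrays. That of the pericentral genes was 8.19, 8.39 and 8.12 in HKO and 8.09, 8.05 and 8.13 in Con, with HKO replicates 1 and 2 above every Con array. Cyp1a2, a cytochrome P450 of the pericentral zone, had 10.16, 10.05 and 9.97 in HKO and 9.23, 9.21 and 9.53 in Con, with no overlap. Its log2 change of 0.73 was the highest of the list, and the higher list mean of HKO replicate 1 rested on this gene. Glul, from the same list, was also without overlap but lower, with 10.49, 10.62 and 10.58 in HKO and 10.72, 10.67 and 10.76 in Con.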
